A study of Mus musculus with 9 samples.

Results

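The transcripts described here encode the cues that steer growing axons and the receptors that read them, measured in Neuro2a cells treated with a xyloside. Members were taken by gene symbol from the table of gene values: semaphorins, plexins, neuropilins, ephrins, Eph receptors, Slits, Robos, netrins and netrin-Gs, and the netrin receptors. The rule found 72 rows of 24972 in the table, of which 36 are ligands and 35 receptors. The remaining row, Plxna4os1, is an RNA antisense to a plexin gene that was caught by its symbol and was at 0 in every library.

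Neuro2a is a mouse neuroblastoma line of wild type genotype that extends neurites in culture. The cells received DMSO (the vehicle), 500 nM 4-methylumbelliferyl xyloside (low concentration, LCX) or 1 mM of the same compound (high concentration, HCX) for 48 h by the labels, and all groups grew in DMEM with 10% serum. The study's text also gives a longer treatment for this experiment, and the labels were followed. A xyloside carries the sugar on which glycosaminoglycan chains are normally begun on a proteoglycan, so that it can take up chain synthesis in place of the core proteins. RNA was sequenced from 3 samples of each group, and the sources do not say whether these came from separate cultures, so p-values measure the spread between the samples alone, which may be technical.

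Guidance cues attract or repel a growth cone, the moving tip of a neurite. Netrins act through Dcc and neogenin (Neo1), while receptors of the Unc5 family are known for repulsion by netrins. Secreted class 3 semaphorins bind a neuropilin, which pairs with a plexin that carries the signal into the cell. Most other semaphorins bind a plexin directly. Slits repel through Robo receptors, and ephrins signal at cell contacts with Eph receptors. Heparan sulfate, a glycosaminoglycan, binds Slits and netrins and takes part in their signaling.

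The 9 libraries were of like size, with summed values of 34949840 to 36667123 normalized counts (reads per gene that the authors scaled between libraries) and 12832 to 13040 genes at 10 or more. HCX libraries lay at 19.28 to 30.37 and the other 6 at -16.49 to -10.16 along principal component 1 (23.9% of the variance). In HCX against DMSO, 755 of 13179 genes tested were called higher and 1781 lower, so that 70.2% of the calls were lower. After scaling by the median of ratios (RLE) this share was 50.3%, and it was 42.5% after scaling to equal library totals and 41.7% with limma-voom (which also uses library totals), so that most calls were then higher. By RLE the DMSO libraries stood slightly above the others on the deposited scale. The 12 neuroblast markers summed to 48934.9 to 49399.9 normalized counts in DMSO, 47804.8 to 49596.2 in LCX and 53762.1 to 55946.0 in HCX. Hand2 and Chga rose and Gap43 fell in HCX against DMSO. Markers of other cell types were 6 genes a list and far lower. Epithelial markers summed to 284.5 to 343.8 in DMSO, 264.6 to 308.8 in LCX and 174.1 to 209.3 in HCX, with Krt5 and Krt14 at 0 in every library. Mesenchymal markers summed to 626.9 to 733.6 in DMSO, 691.4 to 778.5 in LCX and 387.7 to 508.1 in HCX, with Col3a1 at 0. Immune and endothelial markers summed to 255.2 to 268.4 in DMSO, 271.0 to 285.1 in LCX and 163.3 to 226.0 in HCX, with Kdr at 0. Glial markers summed to 507.8 to 581.1 in DMSO, 493.7 to 522.7 in LCX and 482.8 to 554.7 in HCX. Of these lists Krt8, Dcn and Pecam1 fell in HCX against DMSO (Pecam1 not after RLE scaling) and no gene rose. The part of these shifts in the results on guidance genes was not tested.

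Neuro2a cells transcribed 47 of the 72 members well enough to be tested, meaning a value of at least 10 in at least 3 libraries. These were 27 ligands and 20 receptors. By family they were 14 of 20 semaphorins, 7 of 9 plexins, both neuropilins, 7 of 8 ephrins, 6 of 14 Eph receptors, all 3 Slits, 1 of 4 Robos, 3 of 5 netrins and netrin-Gs, and 4 of 6 netrin receptors. Among the 25 others, 5 were at 0 in every library: Epha3, Epha6, Plxna4os1, Robo4 and Sema3d. The netrin receptor Dcc did not exceed 1.86 normalized counts in any library and Unc5d did not exceed 7.06. Of the Slit receptors Robo1 stayed at or below 6.67 and Robo3 at or below 7.15. The highest single value among untested members was 18.1, for Plxnb3. The others without a test were Efnb1, Epha1, Epha4, Epha5, Ephb1, Ephb2, Ephb6, Ntn4, Ntng1, Plxna2, Sema3a, Sema3c, Sema3e, Sema5a and Sema5b.

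To set levels of different genes side by side, values were divided by the length of all annotated exons of a gene. A gene with long alternative exons gets a lower level on this scale. In DMSO, Neo1 had the highest level, 1739 ± 7.06 normalized counts per kilobase (SD, n = 3, as for the other levels here). It stood clear of the next gene, Unc5b, at 921 ± 90.8. Nrp2 followed at 771 ± 85.7 and Plxnb2 at 677 ± 43.6, and these neighbours overlapped. The same held of each next pair of neighbours down to Plxna3 and Efna5: Slit3, the highest of the Slits, had 548 ± 91.6, Plxna1 515 ± 30.2, Sema4d, the highest semaphorin, 508 ± 35.9, Unc5a 465 ± 16.3, Plxna3 460.2 ± 7.49 and Efna5, the highest ephrin, 455 ± 9.81. Of the netrins and netrin-Gs, Ntng2 was highest at 142 ± 9.24 normalized counts per kilobase. Eph receptors were low, with Ephb4 highest at 33.7 ± 2.59. Robo2, the single Robo above the filter, reached 0.295 ± 0.368 normalized counts per kilobase. Within families the levels spanned wide ranges, and Ntn1, the founding netrin of vertebrates, had 2.87 ± 0.507.

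**Figure D1:**
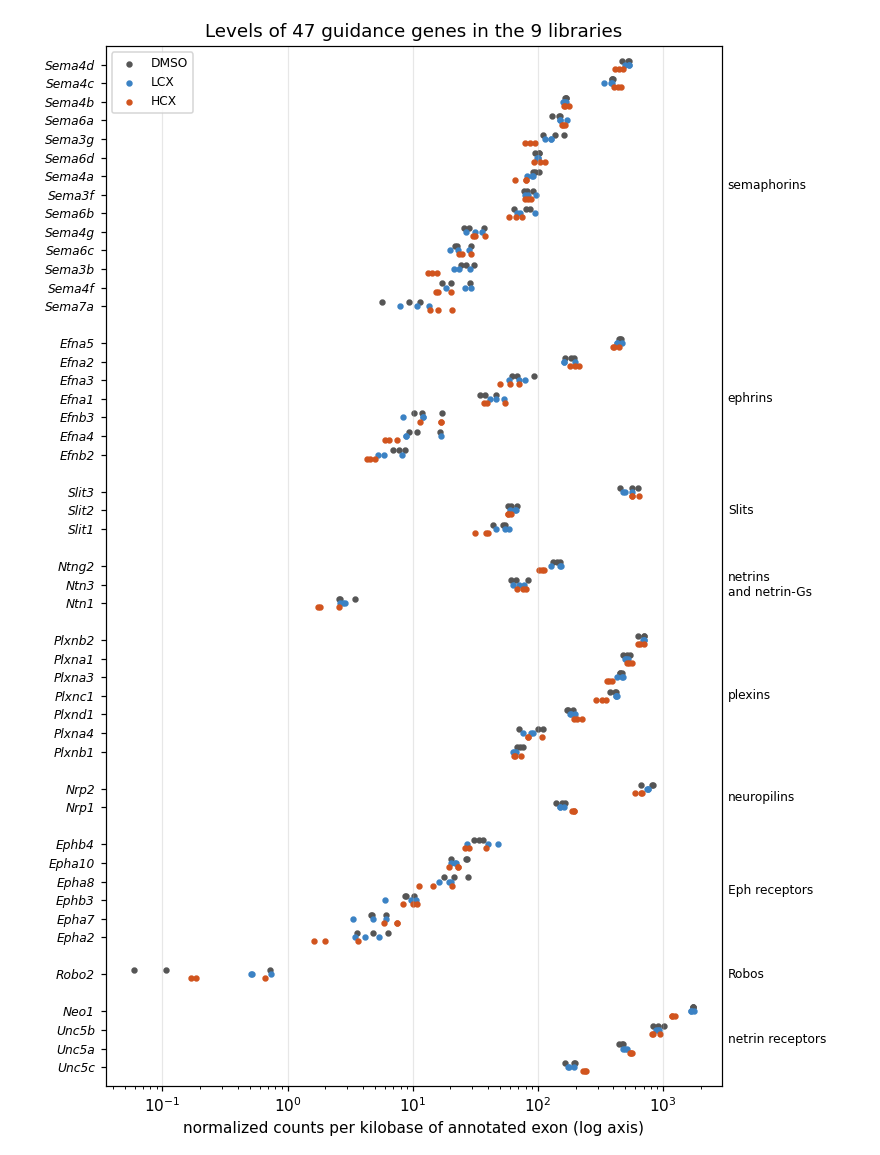
Each point is the level of 1 gene in 1 library, in normalized counts per kilobase of annotated exon on a log axis, for the 47 members tested, grouped by family and coloured by treatment (DMSO, LCX, HCX). Neo1 lies to the right of all other genes in every group, Eph receptors lie to the left of most other families, and Robo2 lies below 1.

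In HCX, genes on both sides of the guidance system differed from DMSO by moderate factors. Among receptors, Neo1 fell while Unc5a and Unc5c rose, Nrp1 rose while Nrp2 fell, and Plxnd1 rose while Plxna3 and Plxnc1 fell, all against DMSO. The ligands called in that comparison (Sema3b, Sema3g, Sema4a, Sema4d, Slit1 and Ntng2) were all lower in HCX, and Sema7a was called higher after RLE scaling, and Sema4c, Sema6a and Sema7a after scaling to equal library totals. In all, 14 of 47 members tested (29.8%) passed an adjusted p of 0.05 in a limma fit over all 13179 genes, beside 19.2% of all genes tested. By direction, 4 members were higher (5.73% of all genes were) and 10 lower (13.5% of all genes were). After RLE scaling 5 were higher and 9 lower, beside 8.48% and 8.57% of all genes. With equal library totals 7 were higher and 8 lower, beside 1307 and 966 of the 13179 genes. None of them reached a change of 2-fold, and the median log2 fold change was -0.08 over the members and -0.04 over all genes tested. At an unadjusted p under 0.05 the count was 21 of 47 members, beside 32.4% of all genes. These are bulk RNA values, in which fewer cells of a type and less RNA per cell cannot be told apart.

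Against LCX, HCX gave 13 of 47 members (27.7%), beside 17.3% of all genes. Of these 4 were higher and 9 lower, beside 8.35% and 8.95% of all genes. The median log2 fold change was -0.08 over the members and -0.0002 over all genes tested. At an unadjusted p under 0.05 the count was 18 of 47, beside 31.1% of all genes. This comparison uses the HCX libraries of the one against DMSO a second time, so the values are given side by side below and not as repeats of each other. Overlap between the groups was counted on the deposited scale alone. There, 7 members lay above and 11 below DMSO in HCX without overlap, beside 11.0% and 21.8% of all genes. For HCX against LCX the numbers were 5 and 13, beside 18.3% and 18.2%. All 15 members called in at least 1 of these comparisons had a mean over the 9 libraries of 100 or more, whereas 11 of the 47 tested lay under 100.

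**Figure D2:**
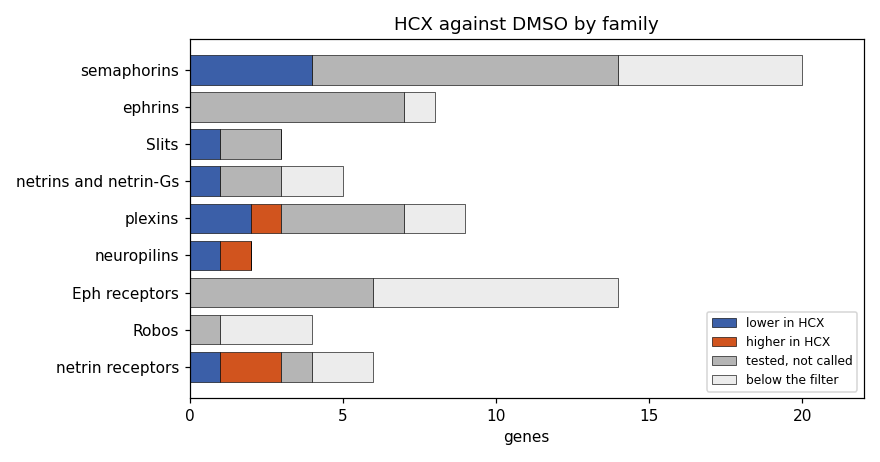
Bars count the members of each family by their call in HCX against DMSO (lower, higher, tested and not called, below the filter), on an axis of genes starting at 0. Ephrins, Eph receptors and Robos have no called member, and lower calls occur among semaphorins, Slits, netrins and netrin-Gs, plexins, neuropilins and netrin receptors. Over all genes tested, 5.73% were called higher and 13.5% lower.

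None of the 14 semaphorins tested rose in HCX against DMSO and 4 fell, beside 5.73% of all genes higher and 13.5% lower. Sema4c, Sema6a and Sema7a were called higher under the scalings named above, and Sema7a under further alternatives. Of the 4 that fell, 2 belong to the secreted class 3, Sema3b and Sema3g, and 2 to the membrane-bound class 4, Sema4a and Sema4d. Sema3b (chr9:107597674-107609229, minus strand on GRCm38) had normalized counts of 148, 117 and 126 with DMSO, 136, 101 and 111 with LCX and 63.4, 75.1 and 67.8 with HCX. All HCX libraries lay under all others. Its level in HCX was 0.533 times that in DMSO, a log2 fold change of -0.91 ± 0.19 (SE, limma adjusted p = 0.0022), and the change was -0.74 ± 0.19 (SE, limma adjusted p = 0.01) against LCX. Without LCX replicate 1 the call against LCX was lost, at an adjusted p of 0.0664 (limma, range over the alternatives 0.00745 to 0.0664). Sema3g, the other class 3 member that fell (chr14:31217860-31230352, plus strand), had normalized counts of 618, 499 and 740.4 with DMSO, 579, 519 and 583 with LCX and 360.0, 394 and 434 with HCX. The HCX values were again under all others, although DMSO libraries spread widely. Sema3g changed by -0.63 ± 0.12 (SE, limma adjusted p = 0.001) on the log2 scale against DMSO and by -0.50 ± 0.12 (SE, limma adjusted p = 0.0063) against LCX. Sema3f, a class 3 member known as a ligand of Nrp2, gave a log2 fold change of 0.00 (95% interval -0.21 to 0.22) against DMSO.

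Of the class 4 semaphorins, which act mainly through B-type plexins, Sema4d (chr13:51685529-51793747, minus strand) is the ligand of Plxnb1 and had normalized counts of 4035, 4089 and 3587 with DMSO, 4093, 3831 and 4079 with LCX and 3153, 3658 and 3396 with HCX. HCX and DMSO libraries overlapped, while HCX and LCX libraries did not. The log2 fold change was -0.20 ± 0.06 (SE, limma adjusted p = 0.024) against DMSO and -0.24 ± 0.06 (SE, limma adjusted p = 0.0099) against LCX. The call against DMSO was lost after RLE scaling (adjusted p 0.0773, limma) and without DMSO replicate 1 (0.0966), DMSO replicate 2 (0.083) or HCX replicate 1 (0.119), over a range of 0.00688 to 0.119. Against LCX it was lost without HCX replicate 1 (0.0548, range 0.0049 to 0.0548). Sema4a (chr3:88435959-88461182, minus strand) had normalized counts of 509, 549 and 490.3 with DMSO, 483, 446 and 497 with LCX and 435, 432 and 358 with HCX. All HCX values lay under those of DMSO and of LCX. It had a log2 fold change of -0.34 ± 0.10 (SE, limma adjusted p = 0.021) against DMSO and of -0.22 ± 0.10 (SE, limma adjusted p = 0.13) against LCX. That against DMSO missed the threshold without DMSO replicate 1 (0.0502), DMSO replicate 2 (0.0703) or HCX replicate 3 (0.107, limma, range 0.0199 to 0.107).

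Sema4c (chr1:36548639-36558349, minus strand), a ligand of Plxnb2, was the single semaphorin called higher against LCX. It had normalized counts of 1816, 1799 and 1811 with DMSO, 1752, 1561 and 1808 with LCX and 1865, 1997 and 2112 with HCX. HCX lay above both other groups with no overlap. The log2 fold change was 0.22 ± 0.06 (SE, limma adjusted p = 0.019) against LCX and 0.14 ± 0.06 (SE, limma adjusted p = 0.14) against DMSO. The difference between these is the log2 fold change of LCX against DMSO, -0.09 (limma adjusted p = 0.83). Of the Sema4c exon bases, 7.27% overlap with D430040D24Rik on the opposite strand, and reads there could be from either gene where counting did not use strand. The call against LCX was lost without LCX replicate 2 (0.127), HCX replicate 2 (0.0516) or HCX replicate 3 (0.0831, limma, range 0.0125 to 0.127). Sema7a, a membrane-anchored ligand of Plxnc1 and of integrins that was singled out after its values were seen, had normalized counts of 31.03, 37.9 and 18.7 with DMSO, 35.6, 26.2 and 44.4 with LCX and 67.7, 45.2 and 52.8 with HCX. HCX libraries lay above all others at a low level, by a small margin at the nearest pair with LCX. Its log2 fold change of 0.93 ± 0.33 (SE, limma adjusted p = 0.051) against DMSO missed the threshold narrowly, and after RLE scaling the adjusted p was 0.0459 (limma, range over the alternatives 0.0317 to 0.192). It was also under the threshold with a pseudocount of 10 (0.0389), at least 10 in every library (0.0335) and without DMSO replicate 2 (0.0317). Against LCX the log2 fold change was 0.64 ± 0.33 (SE, limma adjusted p = 0.19, range 0.134 to 0.469), so no setting called it. The other 8 semaphorins tested were called in neither comparison.

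**Figure D3:**
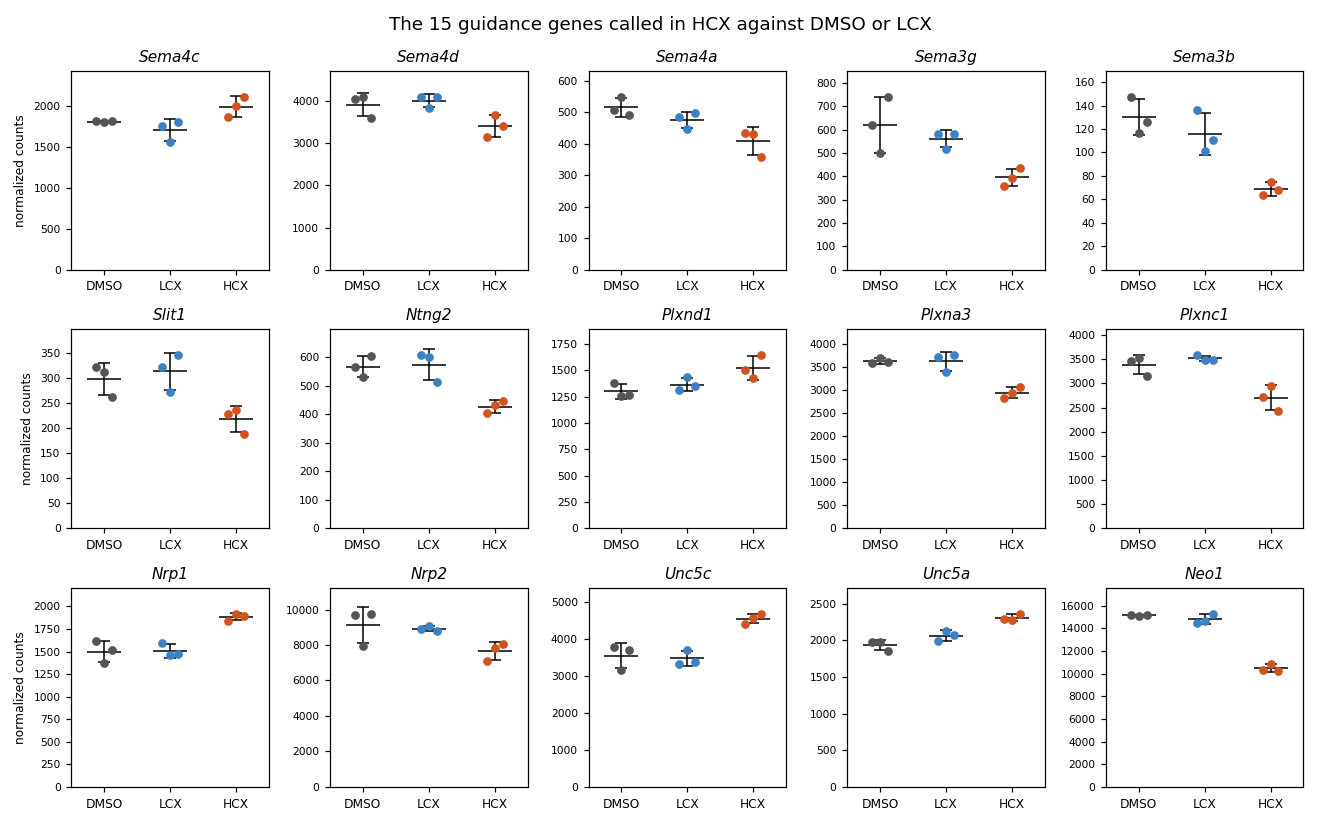
Normalized counts of the 15 members called in HCX against DMSO or LCX, 1 panel a gene with its own axis starting at 0. Points are the 3 libraries of each group, the long bar is their mean and the error bar 1 SD. For Neo1 the 3 HCX libraries lie at 10280.4 to 10867, below all DMSO and LCX libraries, whereas for Unc5a, Unc5c and Nrp1 they lie above both other groups.

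Of the 3 Slits, secreted cues that act through Robo receptors, 1 was called. Over all genes 19.2% were called against DMSO and 17.3% against LCX. Slit1 (chr19:41600257-41743665, minus strand) had normalized counts of 322, 312 and 261 with DMSO, 323, 272 and 346 with LCX and 229, 237 and 188 with HCX, and HCX did not overlap with the other groups. Slit1 changed by -0.45 ± 0.13 (SE, limma adjusted p = 0.022) on the log2 scale against DMSO and -0.52 ± 0.13 (SE, limma adjusted p = 0.01) against LCX. The first was lost without DMSO replicate 1 (0.0913), DMSO replicate 2 (0.0589) or HCX replicate 3 (0.0981, limma, range 0.0149 to 0.0981). The second was lost without LCX replicate 3 (0.0645) or HCX replicate 3 (0.0537, range 0.00813 to 0.0645). Slit3, the most abundant Slit per kilobase, had normalized counts of 3431, 2727 and 3824 with DMSO, 3035, 3440.3 and 2929 with LCX and 3440.2, 3459.9 and 3908 with HCX, with overlap between all groups. It gave a log2 fold change of 0.13 (95% interval -0.06 to 0.31) against DMSO and 0.20 (limma adjusted p = 0.13) against LCX, where leaving out DMSO replicate 2 brought the adjusted p to 0.0316 (limma, range 0.0314 to 0.354). Slit2 gave a log2 fold change of -0.08 (95% interval -0.22 to 0.05) against DMSO. The receptor side of this pair was nearly silent: Robo2 had normalized counts of 1.82, 12.2 and 0.999 with DMSO, 8.61, 8.9 and 12.6 with LCX and 11.2, 3.12 and 2.86 with HCX, with overlap between all groups.

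Ntng2 (chr2:29194541-29253005, minus strand) encodes netrin-G2, a membrane-anchored protein related to netrins that binds Lrrc4 and not Dcc or Unc5 receptors. It had normalized counts of 568, 530.3 and 604 with DMSO, 608, 603 and 512 with LCX and 404, 432 and 447 with HCX. HCX libraries lay below all others. Ntng2 was at 0.754 times its DMSO level, with a log2 fold change of -0.41 ± 0.09 (SE, limma adjusted p = 0.0053), and changed by -0.42 ± 0.09 (SE, limma adjusted p = 0.0045) against LCX. Of its exon bases, 13.98% overlap with 6530402F18Rik on the same strand, a gene that is also in the table, so reads there could count for either. Of the secreted netrins, Ntn3 gave a log2 fold change of 0.10 (95% interval -0.16 to 0.36) and Ntn1 -0.46 (95% interval -1.35 to 0.43) against DMSO. The Ntn1 interval spans more than 2-fold in the lower direction, at values between 10.99 and 21.7.

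Ephrins are the membrane-bound ligands of Eph receptors, A-type by a lipid anchor and B-type by a membrane-spanning stretch. None of the 7 tested was called in either comparison, beside 19.2% of all genes against DMSO and 17.3% against LCX. Efna5, the most abundant per kilobase, had normalized counts of 1876, 1798 and 1824 with DMSO, 1904, 1735 and 1735 with LCX and 1611, 1651 and 1783 with HCX. On the deposited scale, HCX libraries lay just under those of DMSO and overlapped with those of LCX. The log2 fold change was -0.13 ± 0.06 (SE, limma adjusted p = 0.15) against DMSO, and -0.08 after RLE scaling (limma adjusted p = 0.36). Efnb2, singled out after its values were seen, had normalized counts of 47.3, 59.1 and 53.1 with DMSO, 56.1, 35.9 and 40.6 with LCX and 29.3, 31.5 and 34.4 with HCX, also with HCX below both other groups. It gave a log2 fold change of -0.72 ± 0.28 (SE, limma adjusted p = 0.075) against DMSO. Log2 fold changes of the 7 against DMSO were between -0.79 for Efna4, whose values did not exceed 27.1, and 0.22 for Efnb3.

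Some receptors grouped together here changed in opposite directions in HCX against DMSO. Of the netrin receptors Neo1 was lower and Unc5a higher. Of the plexins Plxnc1 was lower and Plxnd1 higher, although Plxnd1 was not called against LCX (limma adjusted p = 0.12). The 200 bases upstream of the RefSeq start site are shown for each. They are from RefSeq on GRCm38.p6, written 5′ to 3′ on the strand of the gene, and capitals mark, on either strand, matches to the GC box, spelled GGGCGG, and to the box that is named after its letters CCAAT.
Neo1 promoter, chr9:59036442-59036641, minus strand: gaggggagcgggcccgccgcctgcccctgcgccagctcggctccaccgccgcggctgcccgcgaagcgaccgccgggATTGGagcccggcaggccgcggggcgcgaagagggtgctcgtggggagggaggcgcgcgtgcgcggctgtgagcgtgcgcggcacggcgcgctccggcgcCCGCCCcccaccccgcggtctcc
Unc5a promoter, chr13:54949211-54949410, plus strand: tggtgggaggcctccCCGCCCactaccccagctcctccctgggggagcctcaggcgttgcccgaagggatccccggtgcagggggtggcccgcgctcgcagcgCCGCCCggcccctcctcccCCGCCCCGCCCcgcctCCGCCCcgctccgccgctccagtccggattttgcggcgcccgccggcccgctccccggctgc
Plxnc1 promoter, chr10:94944846-94945045, minus strand: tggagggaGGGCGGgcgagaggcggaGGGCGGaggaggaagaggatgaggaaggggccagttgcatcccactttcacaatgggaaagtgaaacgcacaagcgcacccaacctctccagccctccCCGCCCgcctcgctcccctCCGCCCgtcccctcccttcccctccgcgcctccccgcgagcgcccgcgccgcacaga
Plxnd1 promoter, chr6:115995006-115995205, minus strand: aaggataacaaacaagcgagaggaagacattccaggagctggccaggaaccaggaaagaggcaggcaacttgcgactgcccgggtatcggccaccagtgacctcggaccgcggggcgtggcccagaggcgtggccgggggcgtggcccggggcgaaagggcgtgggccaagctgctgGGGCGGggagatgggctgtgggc
Every one of these windows held a GC box: Neo1 had 1 match, Unc5a 5, Plxnc1 4 and Plxnd1 1, some of them overlapping each other. A CCAAT box was found for Neo1 alone of the 4. G and C made up 82.5% of the Neo1 window, 80.5% of that of Unc5a, 70.5% of that of Plxnc1 and 68.0% of that of Plxnd1. Of all 32851 RefSeq promoter windows of this length, 10200 held a GC box and 9641 (29.3%) a CCAAT box. RefSeq entries matched 13 of the 15 called members (19 windows), of which 14 windows held a GC box, and 26 of the 32 tested members called in neither comparison (36 windows), of which 29 did. These matches describe the letters of the windows and no binding was measured.

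Of the 4 netrin receptors tested, 3 were called in HCX in both comparisons, beside 19.2% of all genes against DMSO and 17.3% against LCX. Neo1 (chr9:58874687-59036441, minus strand), which binds netrins and repulsive guidance molecules, had normalized counts of 15214, 15091 and 15155 with DMSO, 14501, 14668 and 15301 with LCX and 10342, 10867 and 10280.4 with HCX. The 3 HCX libraries lay well below all others, and DMSO libraries differed little from each other. Neo1 was at 0.692 times its DMSO level in HCX, with a log2 fold change of -0.53 ± 0.04 (SE, limma adjusted p = 4.4e-08), the smallest adjusted p of all members. Against LCX it had a log2 fold change of -0.50 ± 0.04 (SE, limma adjusted p = 1.1e-07). Unc5c (chr3:141465216-141834924, plus strand), a receptor known for netrin repulsion, had normalized counts of 3782, 3149.9 and 3702 with DMSO, 3327, 3709.8 and 3365 with LCX and 4409, 4558 and 4677 with HCX. Its HCX libraries lay above all others. Unc5c was 1.29-fold higher in HCX than in DMSO, at 0.36 ± 0.06 (SE, limma adjusted p = 0.00044) on the log2 scale, and at 0.39 ± 0.06 (SE, limma adjusted p = 0.00023) against LCX.

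Unc5a (chr13:54949411-55006018, plus strand), of the same family, had normalized counts of 1983, 1975 and 1861 with DMSO, 1987, 2133 and 2070.0 with LCX and 2293, 2274 and 2365 with HCX. HCX libraries were the highest, and LCX libraries lay above those of DMSO, by a small margin at the nearest pair. Unc5a had a log2 fold change of 0.25 ± 0.05 (SE, limma adjusted p = 0.0026) against DMSO and 0.16 ± 0.05 (SE, limma adjusted p = 0.04) against LCX. Without 1 library the call against LCX was lost: 0.17, 0.0547 and 0.0979 without LCX replicate 1, 2 and 3, and 0.0699, 0.0662 and 0.106 without HCX replicate 1, 2 and 3 (limma adjusted p, range over the alternatives 0.0233 to 0.17). Unc5b, the most abundant Unc5 gene per kilobase, was called in neither comparison, at a log2 fold change of -0.09 (95% interval -0.23 to 0.04) against DMSO. The calls of Neo1 and Unc5c in both comparisons, and of Unc5a against DMSO, held under all 19 alternatives tried.

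Both neuropilins changed in HCX, in opposite directions, beside 19.2% of all genes called against DMSO and 17.3% against LCX. Neuropilins are co-receptors of class 3 semaphorins, Nrp1 for Sema3a and Nrp2 for Sema3f among others, and Nrp1 also binds VEGF. Nrp1 (chr8:128358604-128503363, plus strand) had normalized counts of 1611, 1375 and 1514 with DMSO, 1595, 1457 and 1469.9 with LCX and 1842, 1919 and 1895 with HCX, and HCX libraries lay above all others. It was 1.26-fold higher in HCX than in DMSO, with a log2 fold change of 0.33 ± 0.06 (SE, limma adjusted p = 0.0013), and gave 0.32 ± 0.06 (SE, limma adjusted p = 0.0017) against LCX. Nrp2 (chr1:62703285-62818695, plus strand) had normalized counts of 9669, 7960.3 and 9763 with DMSO, 8909, 9057 and 8795 with LCX and 7114, 7839.5 and 8040.4 with HCX. HCX and DMSO libraries overlapped at DMSO replicate 2, which was below the other DMSO libraries, while HCX and LCX libraries did not. The log2 fold change was -0.25 ± 0.06 (SE, limma adjusted p = 0.0094) against DMSO and -0.22 ± 0.06 (SE, limma adjusted p = 0.021) against LCX. The call against DMSO was lost without DMSO replicate 1 (0.0565), DMSO replicate 3 (0.0536) or HCX replicate 1 (0.0521, limma, range 0.000138 to 0.0565). Against LCX it was lost without LCX replicate 1 (0.0621), 2 (0.0751) or 3 (0.0532) or HCX replicate 1 (0.0979, range 0.00226 to 0.0979).

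Of the 7 plexins tested, Plxna3 and Plxnc1 fell and Plxnd1 rose in HCX against DMSO, beside 13.5% of all genes lower and 5.73% higher. Plxna3 (chrX:74329066-74344689, plus strand), which signals with neuropilins for class 3 semaphorins, had normalized counts of 3585, 3694 and 3601 with DMSO, 3717, 3385 and 3755 with LCX and 2825, 2927 and 3068 with HCX. All HCX values were below those of the other groups. It had a log2 fold change of -0.30 ± 0.05 (SE, limma adjusted p = 0.00043) against DMSO and of -0.30 ± 0.05 (SE, limma adjusted p = 0.00053) against LCX. Plxnc1 (chr10:94790866-94944835, minus strand), the plexin that binds Sema7a, had normalized counts of 3467, 3533 and 3158 with DMSO, 3582, 3485 and 3486 with LCX and 2721, 2943 and 2428 with HCX. Again no HCX library reached the level of the others. Plxnc1 gave a log2 fold change of -0.33 ± 0.06 (SE, limma adjusted p = 0.00099) against DMSO and -0.39 ± 0.06 (SE, limma adjusted p = 0.00025) against LCX.

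Plxnd1 (chr6:115954811-115995005, minus strand), known as a receptor of Sema3e, had normalized counts of 1386, 1259 and 1265 with DMSO, 1313, 1439 and 1348 with LCX and 1501, 1426 and 1645 with HCX. HCX lay above DMSO without overlap and overlapped with LCX. The log2 fold change was 0.22 ± 0.07 (SE, limma adjusted p = 0.024) against DMSO and 0.16 ± 0.07 (SE, limma adjusted p = 0.12) against LCX. The difference between these is the log2 fold change of LCX against DMSO, 0.07 (limma adjusted p = 0.89). The call was lost without DMSO replicate 2 (0.0677), DMSO replicate 3 (0.0736) or HCX replicate 3 (0.112, limma, range 0.00757 to 0.112). Plxnb2, a receptor of class 4 semaphorins and the most abundant plexin per kilobase, had normalized counts of 5394, 5449 and 4841 with DMSO, 5460.1, 5453 and 5359 with LCX and 4916, 5474 and 5042 with HCX, with overlap of all groups, and gave a log2 fold change of -0.02 (95% interval -0.13 to 0.09) against DMSO. Plxna1, Plxna4 and Plxnb1 were called in neither comparison.

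None of the 6 Eph receptors tested was called, beside 19.2% of all genes against DMSO and 17.3% against LCX. Ephb4, the most abundant per kilobase and the receptor of Efnb2, had normalized counts of 144, 168 and 157 with DMSO, 222, 125 and 185 with LCX and 131, 121 and 179 with HCX, with overlap of all groups. The highest log2 fold change of HCX against DMSO was 0.43 (95% interval -0.12 to 0.99), for Epha7. For Epha8, singled out because an alternative changed its call, the adjusted p was 0.11 with all libraries and 0.0358 without HCX replicate 3 (limma, range 0.0358 to 0.374). Most Eph receptor values were low, and for Epha2, which had the lowest fold change of the 6, the interval ran from -1.93 to -0.07.

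**Figure D4:**
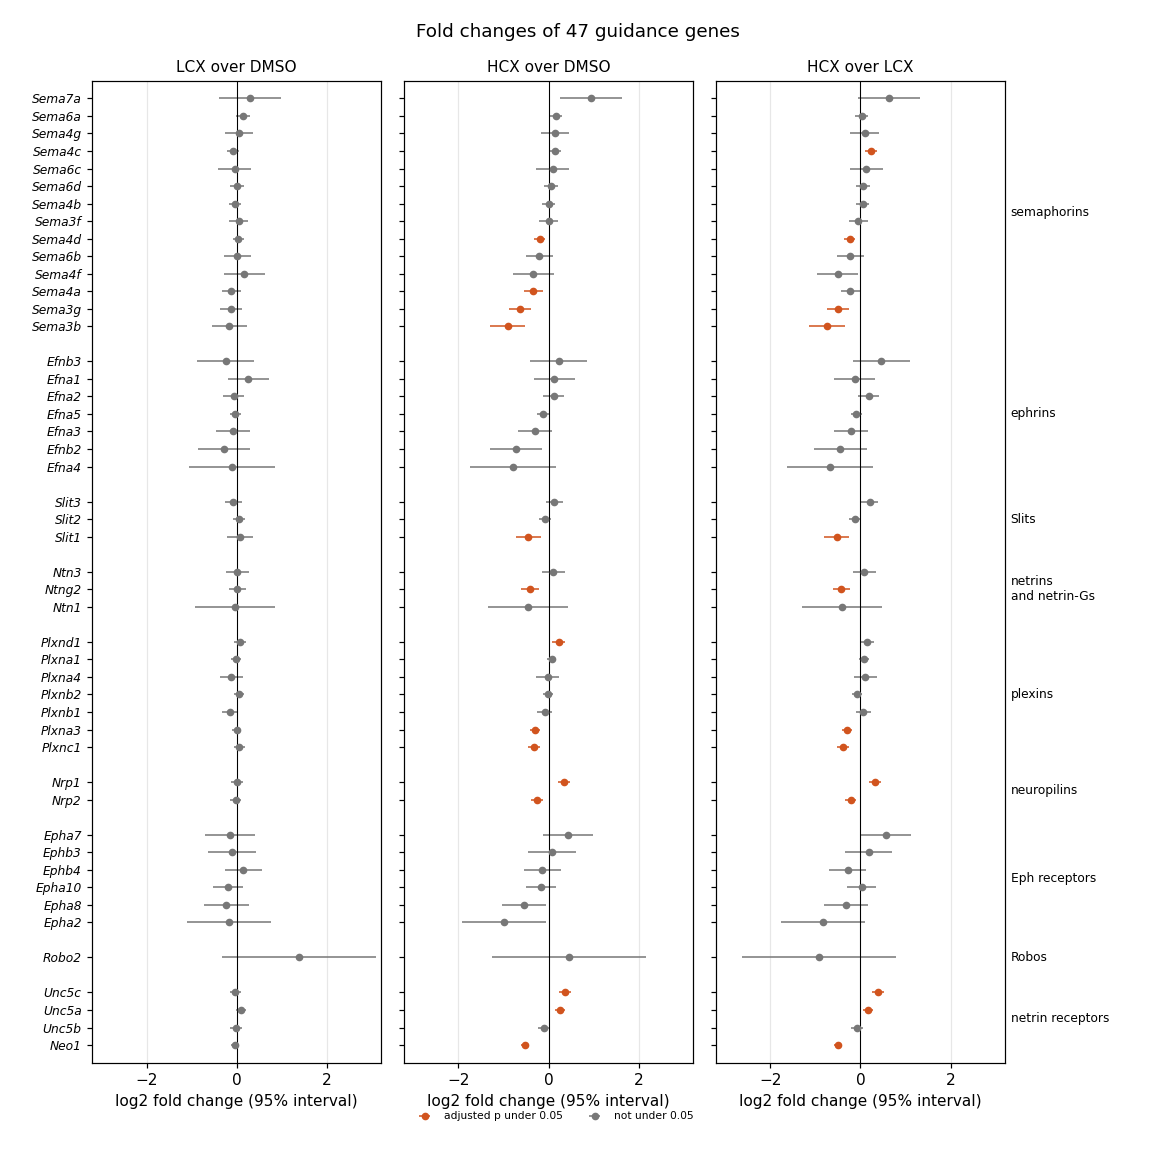
Log2 fold changes on the log2(value + 1) scale of the 47 members, as points with 95% intervals of the limma fit, for LCX over DMSO, HCX over DMSO and HCX over LCX. Orange marks an adjusted p under 0.05, and the line at 0 stands for no change. No point is orange for LCX over DMSO, and Robo2 has the widest interval.

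No difference between LCX and DMSO was detected among the guidance genes. None of 47 members was called between LCX and DMSO, and none of the 13179 genes was (0%). Some alternatives called a few of all genes, the most with the replicate block, at 2 higher and 1 lower. At an unadjusted p under 0.05 the numbers were 0 of 47 members and 6.12% of all genes (807) by limma-trend. After RLE scaling 427 of all genes were under it. At an adjusted p under 0.05, limma-voom also called 0 members. Log2 fold changes were between -0.28 and 1.37, the upper end being Robo2 at its low values. Intervals lay within a 1.5-fold change in both directions for 35 of the 47 and within 2-fold for 44. Of the 3 members with the smallest p, Sema6a had normalized counts of 1331, 1294 and 1147 with DMSO, 1320.3, 1330.3 and 1494 with LCX and 1389.7, 1453 and 1369 with HCX, and LCX overlapped with DMSO. Plxnb1, a receptor of Sema4d, had normalized counts of 724, 688 and 659 with DMSO, 642, 619 and 603 with LCX and 632, 616 and 703 with HCX, with LCX just below DMSO on the deposited scale. Their log2 fold changes for LCX against DMSO were 0.14 (limma adjusted p = 0.8) and -0.15 (limma adjusted p = 0.81), and that of Robo2 was 1.37 (limma adjusted p = 0.81). On the deposited scale, groups did not overlap for 1 member higher in LCX (Unc5a) and 1 lower (Plxnb1), beside 1.75% and 11.1% of all genes. Over all genes tested the median log2 fold change was -0.04 on this scale and 0.003 after RLE scaling.

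Genes that act with or below these receptors were taken from lists of 64 genes, of which 58 were tested. In HCX against DMSO 9 were higher and 10 lower, beside 5.73% and 13.5% of all genes. Against LCX 10 were higher and 6 lower, beside 8.35% and 8.95% of all genes. After RLE scaling 11 were higher and 8 lower against DMSO, beside 8.48% and 8.57%. The counts by list below are those on the deposited scale against DMSO, to be read against 5.73% higher and 13.5% lower. The median log2 fold change over the 58 was 0.02 against DMSO, beside -0.04 over all genes tested, and 0.04 against LCX, beside -0.0002. Among 8 tested modifiers of guidance, none rose and 2 fell against DMSO, of which Dscaml1, an adhesion molecule of the DSCAM family, had normalized counts of 633, 603 and 555 with DMSO, 638, 643 and 625 with LCX and 278, 357 and 296 with HCX and had a log2 fold change of -0.95 ± 0.10 (SE, limma adjusted p = 2.3e-06). Dscam itself had a log2 fold change of -0.56 (limma adjusted p = 0.019). In semaphorin signaling 2 of 19 rose and 2 fell: Mical2, an enzyme that oxidises actin, gave a log2 fold change of 0.35 (limma adjusted p = 0.0017), and Dpysl3, a collapsin response mediator, -0.28 (limma adjusted p = 0.00035). Among 10 genes of Slit and Robo signaling, 1 rose, the kinase gene Abl1 at a log2 fold change of 0.27 (limma adjusted p = 0.00099), and 2 fell, Cap1 (limma adjusted p = 0.0031) and Vasp (0.038, and 0.15 after RLE scaling). Netrin signaling had 3 higher and 2 lower of 10, with Ablim1, an actin-binding protein, at a log2 fold change of -0.29 (limma adjusted p = 0.001) and Trim67, a ubiquitin ligase related to Trim9, at 0.25 (limma adjusted p = 0.0052). Nck2 was higher at a log2 fold change of 0.18 (limma adjusted p = 0.016, and 0.0046 after RLE scaling). Trim9 itself, at a limma adjusted p of 0.049, was among the lower and missed the threshold after RLE scaling (0.11). For ephrin and Eph signaling 3 of 11 rose and 2 fell. Vav3, a guanine nucleotide exchange factor, had normalized counts of 908, 898 and 936 with DMSO, 905, 849 and 759 with LCX and 1295, 1286 and 1655 with HCX and had a log2 fold change of 0.62 ± 0.09 (SE, limma adjusted p = 7.9e-05), and Grip1, a scaffold that binds B-type ephrins, one of -0.40 ± 0.06 (SE, limma adjusted p = 0.00019). In LCX against DMSO none of the 58 was called.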

How the data were processed

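RNA of 9 Neuro2a samples (3 DMSO, 3 LCX, 3 HCX) was sequenced as stranded libraries of polyadenylated RNA. Per the labels, the tools were Partek, TopHat2 and Bowtie and the build mm10, with versions and strand setting of the counting not given in the sources used here. The authors deposited 1 table of normalized values in linear units of signal (reads per gene scaled between libraries) for 24972 gene names, 26 of them turned into dates. Whole reads could not be recovered (42.2% to 69.1% of low values were within 0.02 of whole multiples), so no count model was used. Values were taken as log2(value + 1), which understates changes of low genes. The filter kept genes that reached 10 in 3 or more libraries, and limma-trend was fitted with 1 term per group over all 9 libraries (6 residual and 13.8 prior degrees of freedom), with Benjamini-Hochberg adjustment over the 13179 genes and a call at an adjusted p under 0.05. The fit was tested on simulated data. One gene alone cannot give an exact permutation p under 0.1 with 3 samples against 3.

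Exon lengths and positions are from GENCODE vM21 (GRCm38). At most 11.46% of the 31-base stretches of a member's transcripts occur in another gene, and at most 14.13% of its exon bases overlap with an antisense gene. Members and lists were chosen with earlier results of these data known. Values in every library are given for members called in HCX, the highest per kilobase of each family and the 3 of smallest p between LCX and DMSO, and for Sema7a and Efnb2 as exceptions, and Epha8 is a further exception. Other members are named for their role or as the end of a range. Of each pathway list, up to 3 called genes of smallest adjusted p are named, and Trim9 as an exception. The alternatives tried were RLE scaling, equal library totals, limma-voom, a pseudocount of 0.5 or 10, no filter, at least 10 in every library, a replicate block, only the 6 libraries compared, leaving out each library and an adjusted p under 0.01. Deviations of same-numbered samples of different groups correlated at -0.104 to 0.104. Between DMSO and HCX all were positive (0.067, 0.104 and 0.086), and differently numbered samples gave -0.071 to -0.017. Same-numbered pairs with LCX went both ways, from -0.104 to 0.049. Whether samples of the same number share a batch was not tested. Protein sequences were not used here. Tools were limma 3.58.1 in R 4.3.3, and pandas 2.3.3, numpy 2.4.6 and matplotlib 3.10.9 in Python 3.11.15.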

Additional observations from a re-analysis of the deposited data

How the results depend on the processing

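No result changed direction past the threshold under any alternative. Between HCX and DMSO 4 members were higher, and 7 were after scaling to equal library totals or with limma-voom, which adds Sema4c, Sema6a and Sema7a, while 8 and 7 were lower in place of 10. Over all genes the same settings gave 1307 and 1301 higher in place of 755, and 966 and 930 lower in place of 1781. Leaving out 1 library gave 3 to 4 higher and 6 to 10 lower, with 6 lower without DMSO replicate 1. Without that library 562 of all genes were higher and 1323 lower. Between HCX and LCX 4 were higher, and 2 were at an adjusted p under 0.01, beside 1101 and 470 of all genes. Leaving out 1 library gave 2 to 5 higher and 7 to 9 lower. The 2 higher came without LCX replicate 2, HCX replicate 2 or HCX replicate 3, where 722, 868 and 757 of all genes were higher. Between LCX and DMSO the counts of members were 0 under every alternative. Of the calls, 9 of 14 against DMSO and 7 of 13 against LCX held under all 19 alternatives. With the replicate block, 4 members were higher and 10 lower against DMSO, and 3 higher and 9 lower against LCX. Between LCX and DMSO 0 members differed. Over all genes the block gave 720 higher and 1711 lower against DMSO, and 1025 and 1125 against LCX. Between LCX and DMSO it gave 2 higher and 1 lower over all genes. The member call lost with the block was Unc5a against LCX, at a limma adjusted p of 0.0563 (range 0.0233 to 0.17). Against DMSO, equal library totals and limma-voom ended the calls of Sema4a (0.055 and 0.0601, range 0.0199 to 0.107) and Sema4d (0.114 and 0.118, range 0.00688 to 0.119). Slit1 missed the threshold with limma-voom (0.0622) and with no filter (0.0505, range 0.0149 to 0.0981), and Nrp2 against LCX with no filter (0.052, range 0.00226 to 0.0979). The cause of these changes was not tested. Low values limit the Eph receptors, Robo2 and Ntn1, whose intervals are wide.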

Other observations

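Because some receptor genes grouped together here moved apart in HCX against DMSO, their ratio within a library was also taken. The pairs were chosen for their opposite calls, so that the ratios are a description with no test. Such a ratio does not depend on the scaling of the library. Nrp1 over Nrp2 was 0.259, 0.245 and 0.236 in HCX and 0.167, 0.173 and 0.155 in DMSO, a log2 difference of 0.58, and 0.179, 0.161 and 0.167 in LCX. Unc5c over Neo1 was 0.426, 0.419 and 0.455 in HCX and 0.249, 0.209 and 0.244 in DMSO, a log2 difference of 0.89, with 0.229, 0.253 and 0.220 in LCX. Unc5a over Neo1 was 0.222, 0.209 and 0.230 in HCX and 0.130, 0.131 and 0.123 in DMSO, a log2 difference of 0.78, with 0.137, 0.145 and 0.135 in LCX, where all LCX libraries lay above those of DMSO. Plxnd1 over Plxnc1 was 0.552, 0.484 and 0.678 in HCX and 0.400, 0.357 and 0.401 in DMSO, a log2 difference of 0.56, with 0.366, 0.413 and 0.387 in LCX. For each pair the HCX libraries lay above the others, which follows in part from how the pairs were chosen, and for the 3 pairs other than Unc5a over Neo1 the LCX and DMSO libraries overlapped.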
